A study of Rattus norvegicus with 12 samples.

Results

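The Dbf4-Cdc7 kinase and the Mcm helicase start DNA replication, and their 9 genes (Dbf4, Cdc7, Mcm2, Mcm3, Mcm4, Mcm5, Mcm6, Mcm7 and Mcm10) were followed here in mammary glands of young rats. These 9 genes, of 16511 in the deposited count table, were selected on a measured value, because Dbf4 had the smallest unadjusted p between the diets, and the others were chosen by name as its partners in origin firing. The difference between the diets is therefore given for all 9 genes as a description without a test, and the question was whether the partners moved with Dbf4.

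The libraries came from glands of Sprague-Dawley rats at postnatal day (PND) 21, with 6 offspring of dams on a high fat butter diet (HFB, written HBF in the study) and 6 offspring of dams on the control AIN-93G diet (CTL). The labels and the design text describe snap-frozen mammary glands, a single gland per litter, while the study's methods describe RNA for sequencing from laser-captured samples. For laser capture the methods name glands of the HBF diet with and without bisphenol A, and no glands of the control diet. Whether all 12 libraries, those of HFB in particular, hold the whole tissue is therefore uncertain, and markers of fat, muscle and blood were found in each of them (below). With a single gland per litter, each library stands for a separate litter, and the labels name neither a genetic change nor bisphenol A for any of the 12. In the deposited design text the diets begin in gestation, with conflicting statements of when they end, while the study's methods start them before mating and return all animals to the control diet at birth, so the exposure window of these glands is uncertain. In the gene table the identifiers of the 9 genes (Entrez, with the chromosome on GRCr8) are 312046 for Dbf4 (4), 360908 for Cdc7 (14), 312538 for Mcm2 (4), 316273 for Mcm3 (9), 29728 for Mcm4 (11), 291885 for Mcm5 (19), 29685 for Mcm6 (13), 288532 for Mcm7 (12) and 307126 for Mcm10 (17). Libraries are named by diet and library number (HFB 1 to 6, and CTL 7 to 11 and CTL 14).

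Before a cell divides, the proteins Mcm2 to Mcm7 are loaded around DNA at replication origins as an inactive ring, with the help of the origin recognition complex, Cdc6 and Cdt1. At the start of S phase Dbf4 binds and switches on the kinase Cdc7, which phosphorylates subunits of the ring, and with Cdc45, the GINS complex and Mcm10 the ring becomes the helicase that unwinds DNA at the fork. The gland at this age is a growing tree of epithelial ducts in a pad of fat, and its dividing cells are a small part of the tissue.

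Promoter sequences are shown for both kinase subunits and for Mcm2, Mcm5 and Mcm7, because Mcm2 with Mcm7 and Mcm5 with Mcm7 were among the closest pairs from gland to gland (below), while the relations of Dbf4 to its partners lay on both sides of 0. They are windows of 300 bases from RefSeq on the GRCr8 build, from 250 bases before the start of the gene to 50 after it, written in the direction of the gene. A window was found for 8 of the 9 genes, and Mcm4 had no entry. The windows printed are chr4:26631336-26631635 on the plus strand for Dbf4, chr14:2969607-2969906 on the minus strand for Cdc7, chr4:122918045-122918344 on the minus strand for Mcm2, chr19:13488563-13488862 on the plus strand for Mcm5 and chr12:22163129-22163428 on the minus strand for Mcm7. Capitals mark the letters TTTNNCGC on either strand, a pattern of the E2F type that is known from genes of S phase, and neighbouring capitals can hold overlapping matches of both strands.
Dbf4: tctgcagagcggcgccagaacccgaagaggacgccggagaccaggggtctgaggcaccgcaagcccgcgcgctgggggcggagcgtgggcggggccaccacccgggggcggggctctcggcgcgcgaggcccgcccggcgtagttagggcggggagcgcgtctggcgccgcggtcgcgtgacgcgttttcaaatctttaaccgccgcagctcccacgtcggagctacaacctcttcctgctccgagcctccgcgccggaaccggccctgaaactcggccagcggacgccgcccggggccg
Cdc7: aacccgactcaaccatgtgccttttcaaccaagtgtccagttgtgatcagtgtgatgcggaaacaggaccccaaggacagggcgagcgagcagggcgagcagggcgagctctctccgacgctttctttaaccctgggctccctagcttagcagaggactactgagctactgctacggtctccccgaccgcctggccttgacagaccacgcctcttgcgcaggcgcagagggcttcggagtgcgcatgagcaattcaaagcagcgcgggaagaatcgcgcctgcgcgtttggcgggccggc
Mcm2: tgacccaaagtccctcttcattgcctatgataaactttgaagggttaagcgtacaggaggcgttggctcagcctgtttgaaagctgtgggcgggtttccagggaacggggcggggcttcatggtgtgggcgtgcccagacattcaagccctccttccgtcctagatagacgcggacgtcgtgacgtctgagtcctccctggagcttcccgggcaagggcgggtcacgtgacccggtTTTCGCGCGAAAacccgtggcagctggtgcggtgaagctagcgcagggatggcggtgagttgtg
Mcm5: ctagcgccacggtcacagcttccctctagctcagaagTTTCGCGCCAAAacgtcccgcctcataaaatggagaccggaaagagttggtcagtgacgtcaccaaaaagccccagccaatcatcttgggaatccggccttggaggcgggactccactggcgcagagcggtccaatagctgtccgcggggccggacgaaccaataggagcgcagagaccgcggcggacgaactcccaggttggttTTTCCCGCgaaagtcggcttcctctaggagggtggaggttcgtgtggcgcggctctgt
Mcm7: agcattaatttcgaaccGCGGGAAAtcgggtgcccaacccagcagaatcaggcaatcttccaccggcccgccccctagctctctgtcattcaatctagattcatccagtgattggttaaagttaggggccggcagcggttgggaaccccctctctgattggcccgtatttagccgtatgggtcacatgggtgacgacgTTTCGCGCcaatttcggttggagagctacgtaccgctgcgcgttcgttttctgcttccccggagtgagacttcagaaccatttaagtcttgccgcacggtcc
The E2F-type letters were in 5 of the 8 windows, with 2 matches each in Mcm2, Mcm3, Mcm6 and Mcm7 and 3 in Mcm5, and in none of the windows of Dbf4, Cdc7 and Mcm10. They were in 4.92% of all 33469 promoter windows, in 8.71% of the 8027 windows of tested genes and in 30 of the 67 windows of the other replication and proliferation genes listed here (44.8%). TTTGAA on either strand, the letters known as a cell cycle homology region (CHR), was found in Dbf4 and Cdc7 (1 match each) and in Mcm2 (2 matches), in 18.3% of all windows, in 10.9% of those of tested genes and in 11 of the 67 of the other listed genes (16.4%). CCAAT on either strand was found in Mcm3, Mcm5 and Mcm7 (3 matches each) and in Mcm6 and Mcm10 (2 each), in 37.5% of all windows, in 38.1% of those of tested genes and in 34 of the 67 of the other listed genes (50.7%). In Mcm7 an E2F-type match and a CCAAT match shared a base. The kinase subunits thus had the CHR letters without the exact E2F-type letters, and Mcm3, Mcm5, Mcm6 and Mcm7 had the reverse. The windows of Cdc7 and Mcm10 hold TTTGGCGG, which differs from TTTNNCGC in the last letter alone, and near matches were not counted. A match is a description of letters, not a site or a cause, and a missing match says only that these letters are not in this window.

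The libraries held 2320267 (HFB 1) to 2944680 (CTL 7) counts in total. A floor of 3 counts, taken as the smallest detectable level, corresponded to 0.944 to 1.3 CPM (counts scaled to the library total after TMM normalization, as are all levels below), and this floor and the intervals below cover counting error only. All 9 genes had counts in every library and passed the filter on low counts, as did 9382 genes in all. Over the 12 libraries the summed counts were 223 for Dbf4, 278 for Mcm10 and 379 for Cdc7, against 594 to 1985 for the ring genes, so the kinase subunits and Mcm10 carry the larger counting error. The counting rules and the use of strand are not given in the sources used here. Mcm7 overlaps Mir25, Mir93 and Mir106b, Mcm3 overlaps the pseudogene Cct7-ps4 and Mcm6 overlaps a tRNA gene in the GRCr8 gene table, so reads of these genes may include or lose reads of the overlapping ones.

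Libraries CTL 14 and HFB 6 stood apart from the rest in markers of lymphoid cells. Of 10 lymphoid markers used 9 were in the table, and Ptprc was the most abundant of them over all libraries. Their summed level was 55.7, 33.0, 106, 75.7, 48.6 and 1275 CPM in CTL 7, 8, 9, 10, 11 and 14, and 452, 219, 59.0, 46.3, 44.6 and 1204 CPM in HFB 1 to 6. HFB 1 and HFB 2 were thus above the other HFB libraries except HFB 6. Cd4 went another way, with 4.78 CPM in HFB 6 against 11.2 to 45 CPM in the other HFB libraries, and 23.8 CPM in CTL 14, inside the 9.44 to 27.3 CPM of the other CTL libraries. Under 3 counts were found for 5 of the 9 markers in HFB 4, 4 each in CTL 8 and CTL 11, and 1 each in HFB 3, HFB 5 and CTL 10. The lymphoid score used below is the mean log2 CPM of the 5 markers that passed the filter (Ptprc, Cd4, Cd8a, Cd79b and Lck). At 0 counts were Cd3e and Cd3d in HFB 4, Cd2 in HFB 3, and Cd3d and Ms4a1 in CTL 11.

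The same libraries were low in adipocyte markers, of which 7 of 8 were in the table, all above 3 counts in every library and with Fabp4 the most abundant. These summed to 14362 CPM in CTL 14 against 29339 to 34456 CPM in the other CTL libraries, and to 17673 CPM in HFB 6 against 27229 to 34577 CPM in the other HFB libraries. Epithelial markers (7 of 8 in the table, Krt8 the most abundant) were above 3 counts in every library of the labelled tissue. They ran from 117 CPM in HFB 1 to 672 CPM in HFB 6 (median 287) with HFB, and from 189 CPM in CTL 9 to 652 CPM in CTL 14 (median 430) with CTL. Endothelial markers (4 of 5 in the table, Pecam1 the most abundant) were at 391 CPM in CTL 14 and 366 CPM in HFB 6, against 130 to 214 CPM in the others, and this rise was mainly that of Pecam1. Relative to the other 5 libraries of the diet, CTL 14 and HFB 6 stood at 5.33 and 5.07 times for Pecam1, 1.89 and 1.81 times for Emcn, 0.98 and 1.18 times for Tek, and 0.71 and 0.12 times for Cdh5. Macrophage markers (5 of 5, Csf1r the most abundant) lay between 182 CPM in CTL 14 and 418 CPM in CTL 11, skeletal muscle markers (6 of 6, Acta1 the most abundant) between 178 CPM in CTL 10 and 6565 CPM in CTL 11, and erythroid markers (5 of 6, Hbb the most abundant) between 7952 CPM in CTL 10 and 82225 CPM in HFB 2. The erythroid markers had a median of 27081 CPM with HFB and 11911 CPM with CTL, and were at 26453 CPM or more in the HFB libraries except HFB 1 (9235 CPM) and at 12880 CPM or less in the CTL libraries except CTL 9 (51183 CPM). Differences between the diets are given below with and without CTL 14 and HFB 6 for the 9 genes and the lists, and in part for other single genes. Relations between genes are given mainly without these libraries, and the part of these cell types in the results was not tested. In tissue, fewer cells of a type and less RNA per cell cannot be told apart.

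**Figure D1:**
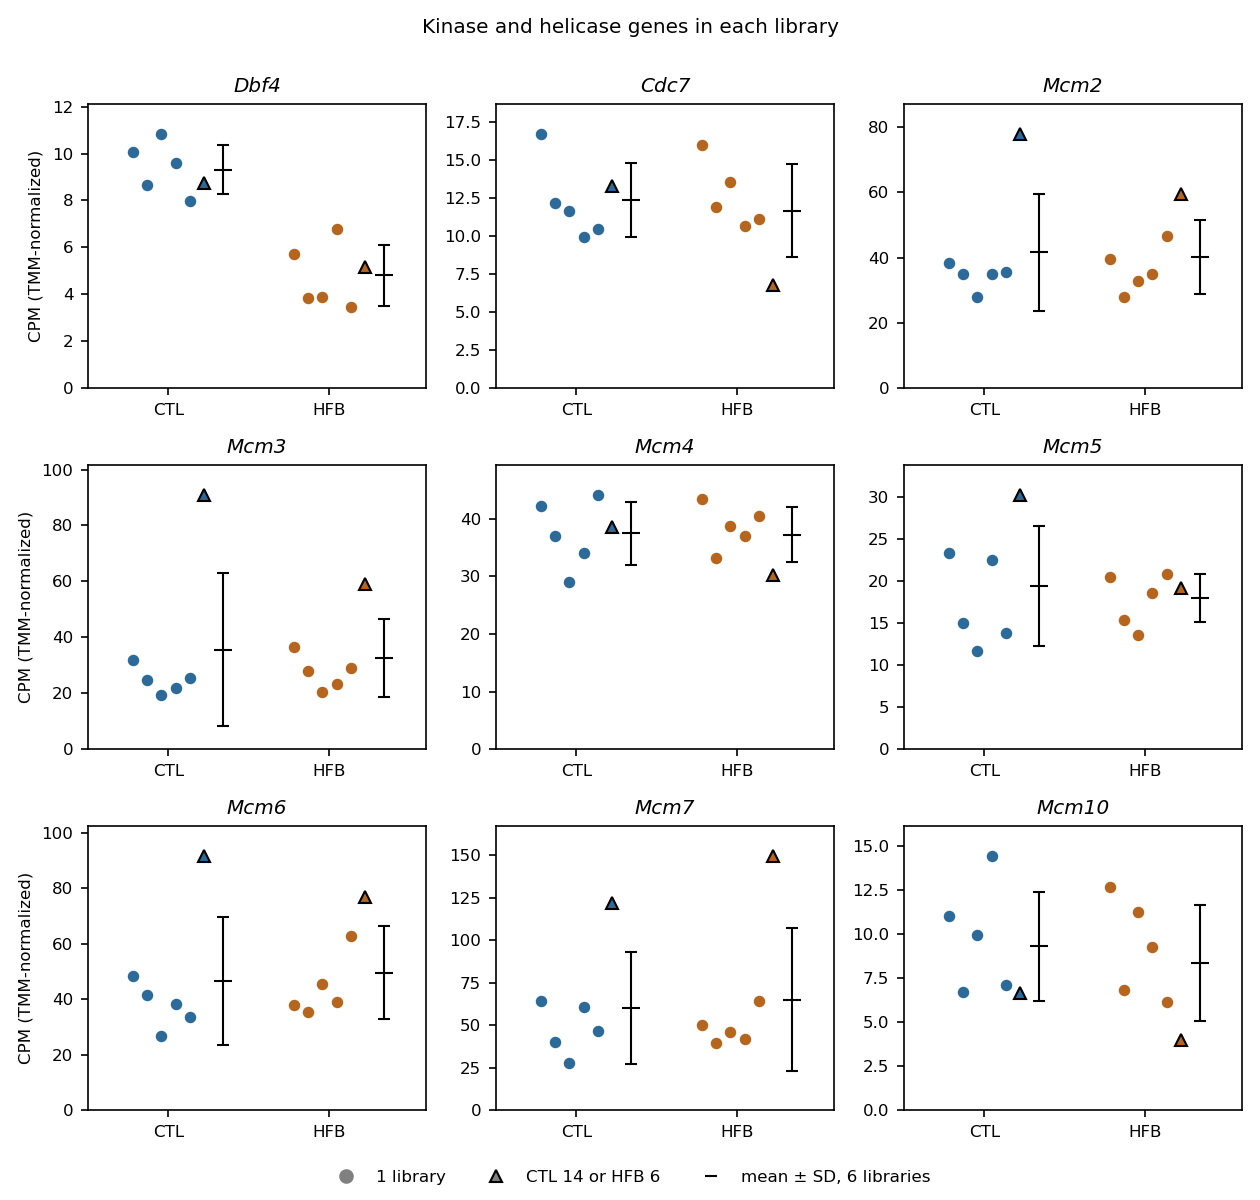
Level of each gene in each library, in CPM after TMM normalization with a separate axis per gene, by diet, with the mean and SD of 6 libraries beside the points and triangles for CTL 14 and HFB 6. The Dbf4 points of the diets do not overlap, those of the other 8 genes do, and CTL 14 and HFB 6 are the highest of their diet in Mcm2, Mcm3, Mcm6 and Mcm7.

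Dbf4 is a regulatory subunit that switches on Cdc7. Its median with HFB was 4.53 CPM, from 3.46 CPM in the lowest library (HFB 5) to 6.77 CPM in the highest (HFB 4). In the CTL group it was at 7.96 CPM in the lowest library (CTL 11), at a median of 9.18 CPM, and at 10.8 CPM in the highest (CTL 9). Every HFB library was below every CTL library, and CTL 14 and HFB 6 lay inside the range of their diets. The means were 4.81 ± 1.30 CPM (SD, n = 6) with HFB and 9.31 ± 1.05 CPM (SD, n = 6) with CTL, which is -0.94 as a log2 fold change (standard error 0.22), and -0.98 without CTL 14 and HFB 6. Dbf4 was selected on this difference, so no test is given for it. Groups that do not overlap were found for 10 of 9382 genes (0.107% of them), Dbf4 included, and nothing is read from this share for a gene selected on the same contrast.

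These levels rest on few counts. Dbf4 had 9 to 19 counts in an HFB library and 19 to 32 in a CTL library. The sums were 74 counts with HFB and 149 with CTL, for which exact Poisson 95% intervals are 3.8 to 6.08 CPM and 7.88 to 10.9 CPM. Within a diet, the variance between libraries was 0.92 times the Poisson variance with HFB and 0.29 times with CTL, which is a description, because the p that selected Dbf4 sets the difference between the diets against the spread within them and so favours a gene of low spread.

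Cdc7, the catalytic subunit, had similar levels with both diets. It was at 6.78 CPM in the lowest HFB library (HFB 6), at a median of 11.5 CPM and at 16.0 CPM in the highest (HFB 1). With CTL the lowest was 9.96 CPM (CTL 10), the median 11.9 CPM and the highest 16.7 CPM (CTL 7). The groups overlapped over most of their range. The log2 fold change was -0.09 (standard error 0.22), from means of 11.7 ± 3.07 CPM (SD, n = 6) with HFB and 12.4 ± 2.42 CPM (SD, n = 6) with CTL, and it was 0.05 without CTL 14 and HFB 6. Its variance within a diet was 2.02 times the Poisson variance with HFB and 1.37 times with CTL.

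Among the ring genes, Mcm4, a subunit that the kinase phosphorylates, had the smallest SD relative to its mean in both diets (12.8% with HFB and 14.7% with CTL). It was at 30.3 CPM in the lowest HFB library (HFB 6), at a median of 37.9 CPM and at 43.4 CPM in the highest (HFB 1), and with CTL at 29.0 (CTL 9), 37.7 and 44.0 CPM (CTL 11). The groups covered nearly the same range. Its log2 fold change was -0.01 (standard error 0.14), the smallest error among the 9 genes, and 0.05 without CTL 14 and HFB 6. Its variance was 1.52 times the Poisson variance with HFB and 2.0 times with CTL. With HFB this ratio was lower for Mcm5, at 1.18 times.

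Mcm2, another substrate of the kinase, was at 28.1 CPM in the lowest HFB library (HFB 2), at a median of 37.3 CPM and at 59.4 CPM in the highest (HFB 6). With CTL it was at 28.1 CPM (CTL 9), 35.3 CPM and 77.8 CPM (CTL 14). The groups overlapped, and the highest library of each diet was the one rich in lymphoid markers. The log2 fold change was -0.05 (standard error 0.26), 0.24 without CTL 14, -0.20 without HFB 6 and 0.08 without both.

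Mcm6, which sits beside Mcm2 in the ring, ran from 35.4 CPM (HFB 2) over a median of 42.3 CPM to 77.0 CPM (HFB 6) with HFB, and from 26.8 CPM (CTL 9) over 40.0 CPM to 91.4 CPM (CTL 14) with CTL. HFB 5, at 62.7 CPM, was also above all CTL libraries but CTL 14. The log2 fold change was 0.08 (standard error 0.29), 0.40 without CTL 14, -0.09 without HFB 6 and 0.22 without both.

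Mcm3 and Mcm7 had the widest spread. Mcm3 was at 20.6 CPM in the lowest (HFB 3), a median of 28.7 CPM and 59.0 CPM in the highest HFB library (HFB 6), and at 19.5 CPM (CTL 9), 25.2 CPM and 90.7 CPM (CTL 14) with CTL. Mcm7 was at 39.6 CPM (HFB 2), 47.8 CPM and 149 CPM (HFB 6) with HFB, and at 28.1 CPM (CTL 9), 53.5 CPM and 122 CPM (CTL 14) with CTL. The groups overlapped for both genes, and CTL 14 and HFB 6 lay far above the other libraries. The log2 fold changes were -0.12 (standard error 0.39) for Mcm3 and 0.11 (standard error 0.39) for Mcm7. They depended on these libraries, with 0.42 for Mcm3 without CTL 14 and -0.38 without HFB 6, and 0.45 for Mcm7 without CTL 14 and -0.33 without HFB 6. With both left out they were 0.16 for Mcm3 and 0.01 for Mcm7.

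Mcm5, the subunit that closes the ring against Mcm2, was at 13.6 CPM in the lowest HFB library (HFB 3), at a median of 18.8 CPM and at 20.8 CPM in the highest (HFB 5), and with CTL at 11.7 CPM (CTL 9), 18.7 CPM and 30.1 CPM (CTL 14). The CTL group spread more widely, with a variance of 6.62 times the Poisson variance against 1.18 times with HFB, and it enclosed the whole HFB range. The log2 fold change was -0.11 (standard error 0.24), and 0.03 without CTL 14 and HFB 6.

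Mcm10, which is not part of the ring but is needed for it to unwind DNA, was at 3.99 CPM in the lowest HFB library (HFB 6), at a median of 8.04 CPM and at 12.7 CPM in the highest (HFB 1). With CTL it was at 6.66 CPM (CTL 14), 8.54 CPM and 14.4 CPM (CTL 10). The groups overlapped, and HFB 6 and CTL 14 were the lowest libraries of their diets rather than the highest as in most of the ring. The log2 fold change was -0.15 (standard error 0.31), and -0.09 without these libraries.

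Taking the 8 partners of Dbf4 as a list, 6 had a log2 fold change below 0 and 2 above 0, with a median of -0.07, and the groups overlapped for all 8. Over all genes tested, 50% had a log2 fold change below 0 and the median was 0.00021. With DESeq2's size factors or upper-quartile normalization each of the 8 kept its sign, whereas without CTL 14 and HFB 6 only Mcm10 was below 0 and the median was 0.05. Over all 9386 genes tested without these libraries, 4572 were below 0 and the median was 0.0067. Each partner's log2 fold change was smaller than its standard error, and none of them came near the -0.94 of Dbf4, but whether it differed from that of Dbf4 was not tested, because Dbf4 was selected on it.

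**Figure D2:**
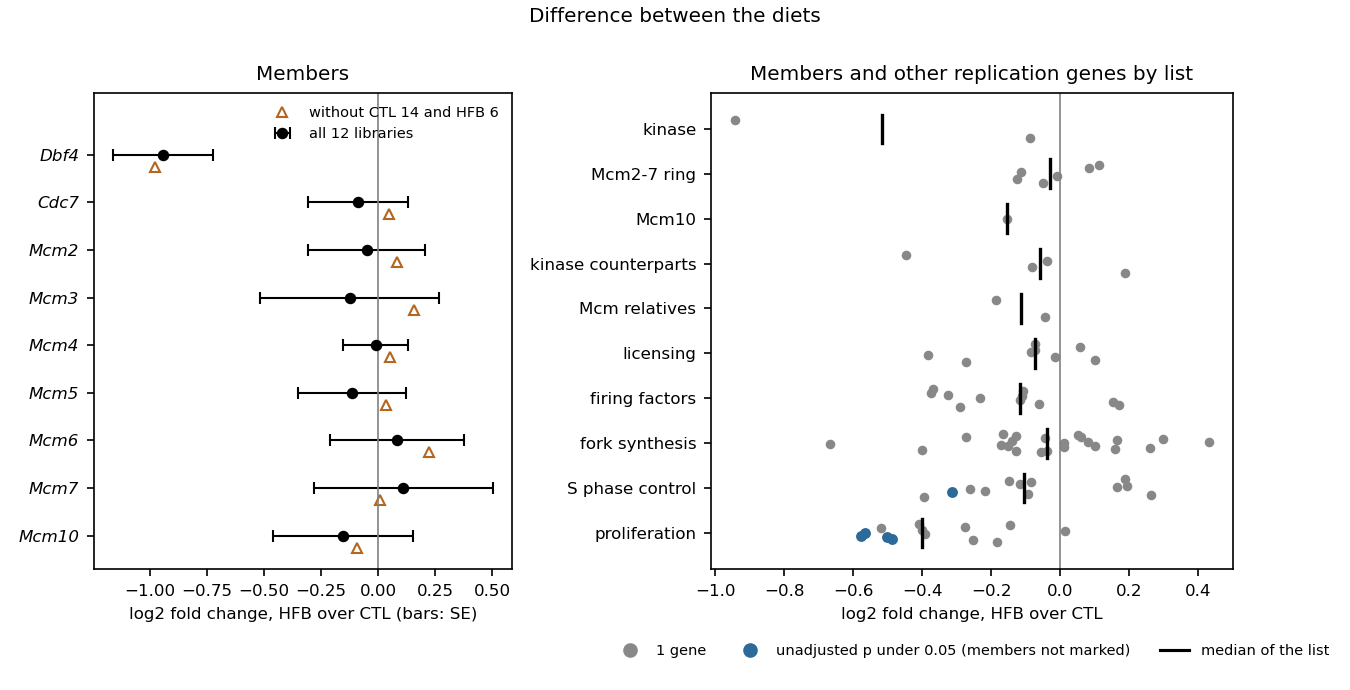
Log2 fold change of HFB over CTL for the 9 genes with standard errors and, as triangles, without CTL 14 and HFB 6 (left), and for each gene of the replication lists with the list medians as black lines (right). Dbf4 lies at -0.94, its 8 partners lie between -0.15 and 0.11, and most proliferation genes lie below 0.

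CTL 14 and HFB 6 did not raise all helicase genes alike. Relative to the median of the other 5 libraries of the diet, CTL 14 was 2.22 times as high in Mcm2, 3.66 times in Mcm3, 2.02 times in Mcm5, 2.38 times in Mcm6 and 2.61 times in Mcm7, but 1.04 times in Mcm4, 1.14 times in Cdc7, 0.91 times in Dbf4 and 0.67 times in Mcm10. HFB 6 was 1.70 times as high in Mcm2, 2.10 times in Mcm3, 1.96 times in Mcm6 and 3.26 times in Mcm7. The ring genes thus split in these libraries, with Mcm4 outside the rise in both and Mcm5 inside it in CTL 14 alone.

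In HFB 6 some of the genes were below all other HFB libraries instead. Its ratio to the median of the other 5 was 0.78 for Mcm4, 0.57 for Cdc7 and 0.43 for Mcm10. The other lists went both ways in it, with median ratios of 1.37 for genes of synthesis at the fork (up to 4.33 for Pold1), 1.24 for licensing genes, 1.19 for firing factors and 1.13 for proliferation genes, but 0.92 for counterparts of the kinase, 0.83 for genes that control S phase and 0.56 for relatives of the Mcm genes, where all tested genes had 0.98. Low single genes are named here after their values were seen. Rpa1, a subunit of the protein that coats single-stranded DNA, was at 1.20 CPM, which is the floor of 3 counts, against 9.62 to 27.4 CPM in the other 5 HFB libraries, Mtbp, a firing factor, at 1.59 CPM against 5.70 to 10.4 CPM, and Uhrf1, which brings DNA methylation to new strands, at 0.399 CPM, under the floor of 3 counts, against 3.83 to 11 CPM. HFB 6 was therefore both the highest HFB library in 4 ring genes and the lowest in other genes of the same process.

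**Figure D3:**
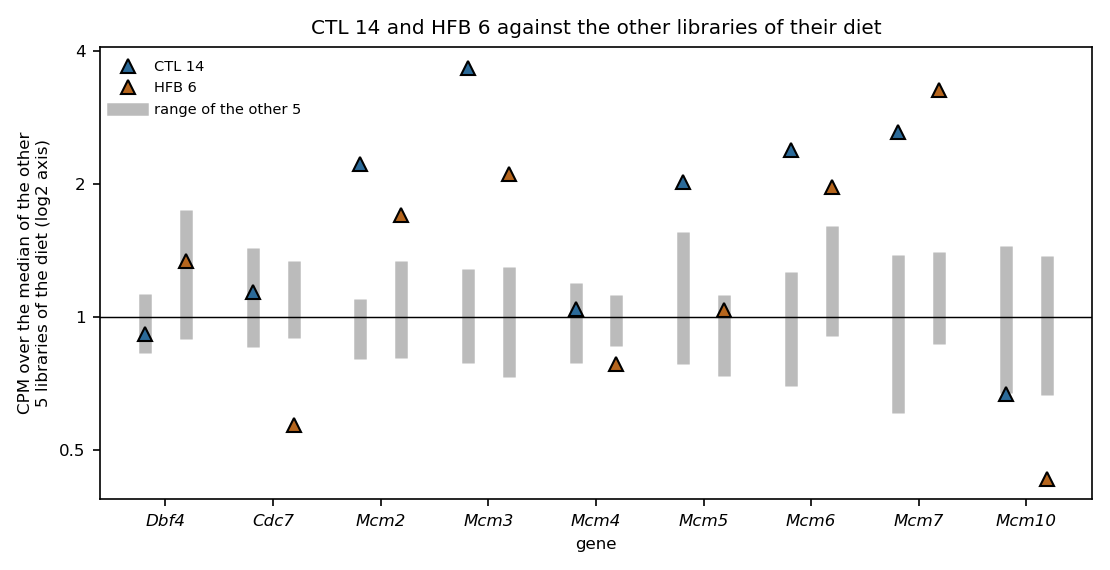
CPM of CTL 14 and HFB 6 divided by the median of the other 5 libraries of their diet, on a log2 axis, with the range of those 5 as gray bars. Mcm2, Mcm3, Mcm6 and Mcm7 lie above the bars in both libraries, and Cdc7, Mcm4 and Mcm10 lie below them in HFB 6.

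Relations among the genes were examined from gland to gland within the diets. The spread of Dbf4 within the diets entered the p that selected it, so its relations are given without a test, while the partners were chosen by name. The mean of each diet was subtracted from log2 CPM (prior count 2), and libraries were permuted within diets for p. The main setting for these relations was all 12 libraries. Because CTL 14 and HFB 6 stood apart in lymphoid and adipocyte markers, values are given mainly over the 10 other libraries. The p over the 10 libraries thus follows a choice made on marker levels of the same data. The p is adjusted by Benjamini-Hochberg over all 81 relations computed (36 gene pairs and 45 relations of a gene to a marker score).

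The relations of Dbf4 to its partners lay on both sides of 0. Its r with them ran from -0.40 for Mcm6 to 0.55 for Mcm10, with a median of -0.06 and 4 of 8 above 0. With Cdc7, its binding partner, r was 0.17 and rho 0.15, and r was -0.03 without the farthest libraries, HFB 2 and HFB 5, and -0.02 with all 12 libraries. With Mcm10, r was 0.55 and rho 0.55, and r was 0.21 without HFB 2 and HFB 5 and 0.33 with all 12 libraries. With 9 to 32 counts of Dbf4 per library, the absence of a relation is not shown.

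Over the 10 libraries all 15 pairs among Mcm2 to Mcm7 had r above 0, from 0.33 for Mcm3 with Mcm6 to 0.85 for Mcm5 with Mcm7, with a median of 0.64. For Mcm2 with Mcm7, r was 0.80 (permutation p = 0.00063, adjusted p = 0.0255) and rho 0.89 (permutation p = 0.00042, adjusted p = 0.0116). Among the pairs of partners of Dbf4, this was the only one with an adjusted p under 0.05 over the 10 libraries, and r fell to 0.51 without HFB 5 and CTL 9. For Mcm5 with Mcm7, r was 0.85 (permutation p = 0.00855, adjusted p = 0.0989) and rho 0.81 (permutation p = 0.0187, adjusted p = 0.216), and r was 0.72 without CTL 7 and CTL 9. When the farthest pair of libraries was left out for each pair of genes, all 15 r stayed above 0, with a median of 0.41 over 8 libraries. Leaving out the farthest libraries narrows the range and so tends to lower r, and how much of these relations rested on a few libraries was not tested. With all 12 libraries, where CTL 14 and HFB 6 are high together, the median r of the 15 pairs was 0.73, and 8 pairs had an adjusted permutation p under 0.05 by r and 2 by rho (by r, Mcm2 with Mcm3, Mcm5, Mcm6 and Mcm7, Mcm3 with Mcm6 and Mcm7, and Mcm7 with Mcm5 and Mcm6). Those of Mcm4 rested on leaving out CTL 14 and HFB 6. With all 12 libraries r of Mcm4 was 0.0053 with Mcm7 (permutation p = 0.987, adjusted p = 0.996, rho 0.25, permutation p = 0.453, adjusted p = 0.680) and 0.14 with Mcm2 (permutation p = 0.699, adjusted p = 0.864, rho 0.41, permutation p = 0.206, adjusted p = 0.477), against 0.64 and 0.73 without these libraries.

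Cdc7 and Mcm10 had no relation to a ring gene with an adjusted p under 0.05. Mcm10 had r between -0.16 (Mcm6) and 0.35 (Mcm5) with the ring genes and 0.34 with Cdc7 (permutation p = 0.366, adjusted p = 0.604, rho 0.19, permutation p = 0.626, adjusted p = 0.865). Cdc7 had r of 0.57 with Mcm3 (permutation p = 0.0997, adjusted p = 0.288, rho 0.31, permutation p = 0.402, adjusted p = 0.728). Without HFB 1 and CTL 7, the farthest libraries, these r with Cdc7 were -0.07 for Mcm10 and -0.36 for Mcm3, so their sign depended on those libraries. For Mcm10 with Mcm7, r was 0.19 (permutation p = 0.631, adjusted p = 0.778, rho 0.21, permutation p = 0.584, adjusted p = 0.865), and 0.89 without HFB 5 and CTL 9. With all 12 libraries r was 0.57 for Mcm10 with Cdc7, -0.09 for Cdc7 with Mcm3 and -0.48 for Mcm10 with Mcm7. The relations of Cdc7 and Mcm10 to the ring thus changed in size or sign with a pair of libraries.

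**Figure D4:**
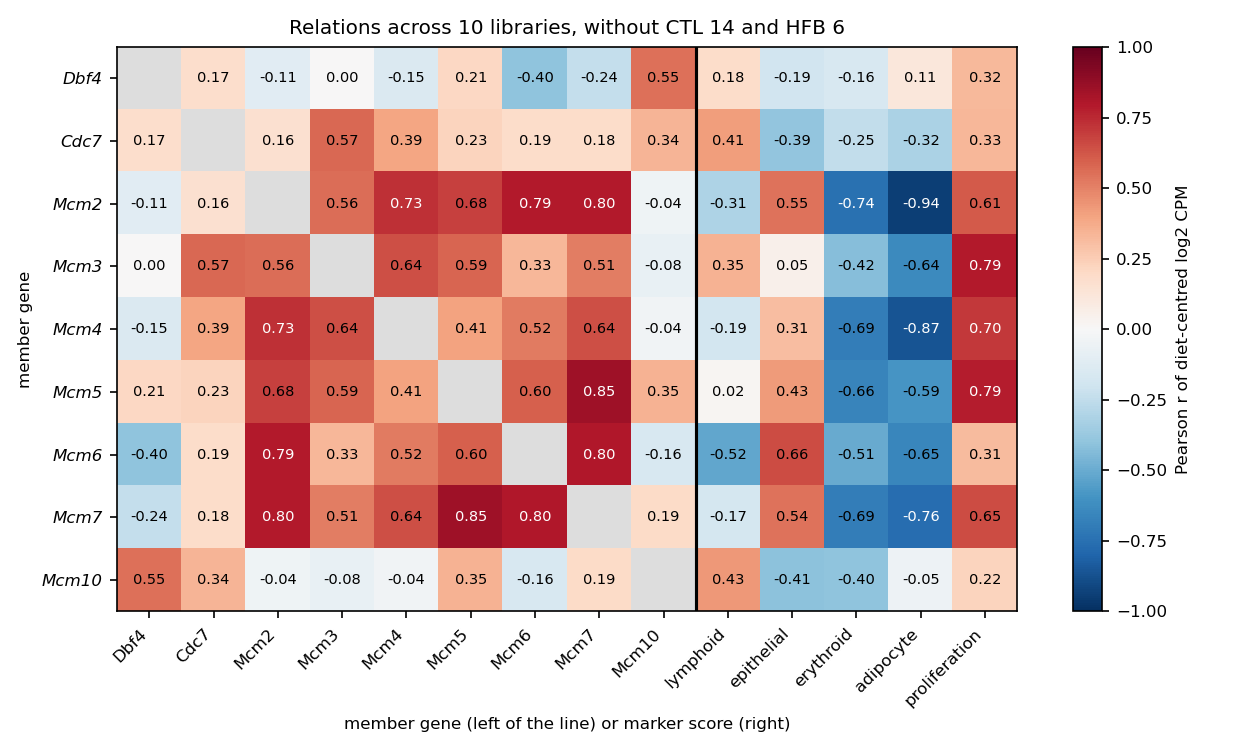
Pearson r of log2 CPM, with the diet mean subtracted, for each pair of the 9 genes and for each gene with 5 marker scores, over the 10 libraries without CTL 14 and HFB 6. The block of Mcm2 to Mcm7 is positive throughout, the Dbf4 row is mixed, and the adipocyte column is negative for the ring genes.

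Over the 10 libraries, Mcm2 and Mcm4 by r, and Mcm2 and Mcm7 by rho, were lower where the adipocyte score was higher. The adipocyte score (mean log2 CPM of 7 markers) gave r = -0.94 with Mcm2 (permutation p = 0.00018, adjusted p = 0.0146) and rho = -0.98 (permutation p = 0.00025, adjusted p = 0.0116), and r was -0.92 without HFB 5 and CTL 9. With Mcm4 it gave r = -0.87 (permutation p = 0.00098, adjusted p = 0.0265) and rho = -0.78 (permutation p = 0.00283, adjusted p = 0.0573), and r was -0.87 without CTL 9 and CTL 11. The relation of Mcm4 turned with all 12 libraries, where r was 0.14 (permutation p = 0.681, adjusted p = 0.862) and rho -0.39 (permutation p = 0.224, adjusted p = 0.494). With Mcm7 it gave r = -0.76 (permutation p = 0.00712, adjusted p = 0.0989) and rho = -0.87 (permutation p = 0.00043, adjusted p = 0.0116), and r was -0.52 without HFB 5 and CTL 9. For Mcm3, Mcm5 and Mcm6, r lay between -0.65 and -0.59 with adjusted permutation p of at least 0.241 (with all 12 libraries -0.93 for Mcm3 and -0.87 for Mcm6, each with an adjusted permutation p of 0.0104), and for Dbf4 it was 0.11. The call for Mcm4 thus rested on leaving out CTL 14 and HFB 6. These libraries were left out in part for their adipocyte markers, so the p with this score follows a choice made on it. The part of adipocytes in the relations among the ring genes was not tested.

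The score of 13 proliferation genes, of 18 listed, had r from 0.31 (Mcm6) to 0.79 with the ring genes, and the erythroid score from -0.74 (Mcm2) to -0.42 (Mcm3), none with an adjusted permutation p under 0.05. The proliferation score gave r = 0.79 with Mcm3 (permutation p = 0.0122, adjusted p = 0.0991, rho 0.70, permutation p = 0.0472, adjusted p = 0.248) and r = 0.79 with Mcm5 (permutation p = 0.00832, adjusted p = 0.0989, rho 0.70, permutation p = 0.0370, adjusted p = 0.248). Without the farthest libraries these were 0.55 (HFB 1 and CTL 9) and 0.61 (CTL 7 and CTL 9). With all 12 libraries r was 0.21 for Mcm3 (permutation p = 0.503, adjusted p = 0.727, rho 0.37, permutation p = 0.250, adjusted p = 0.520) and 0.60 for Mcm5 (permutation p = 0.0379, adjusted p = 0.144, rho 0.52, permutation p = 0.0800, adjusted p = 0.270). With Dbf4 the proliferation score gave r = 0.32 and rho = 0.42 over the 10 libraries. The lymphoid, epithelial and erythroid scores gave no relation to any partner of Dbf4 with an adjusted p under 0.05 over these 10 libraries. With all 12, the lymphoid score had r = 0.83 with Mcm3 (permutation p = 0.00741, adjusted p = 0.0462, rho 0.51, permutation p = 0.0999, adjusted p = 0.313).

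**Figure D5:**
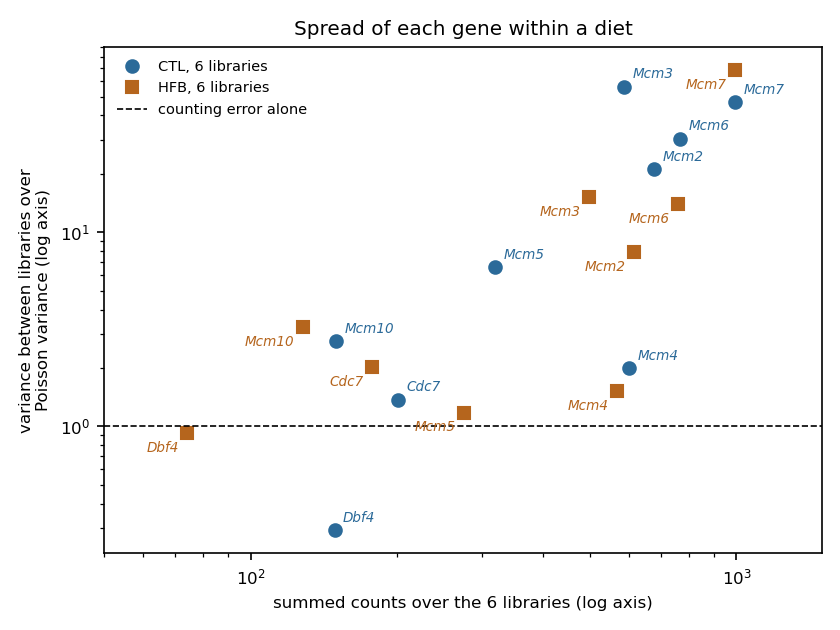
Variance of the counts between the 6 libraries of a diet divided by the Poisson variance, against the summed counts, both on log axes, with a dashed line where the spread equals counting error. Dbf4 lies at or under the line in both diets (0.92 and 0.29), and Mcm7 reaches 68.6 with HFB.

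The genes nearest to Dbf4 from gland to gland, ranked by r over all 12 libraries with the diet mean subtracted, were Tnrc6b, Rufy2, Kdm5b, Msh3 and Ubr2, with r over the 10 libraries of 0.89, 0.85, 0.90, 0.84 and 0.82. They are the highest of 9373 genes ranked and are given as a description with no p. The 10 libraries are part of the 12 used for ranking, so r over them is no separate check, here and for the ring below. Within a diet, the variance of Dbf4 was 0.92 (HFB) and 0.29 (CTL) times the Poisson variance. Its spread was thus no larger than counting error, and places in this ranking, those of the partners included, are a description only. Among all 9381 other tested genes the 8 partners ranked between place 1090 (Mcm10) and place 7322 (Mcm4), so none was among the nearest. The genes nearest to the mean of Mcm2 to Mcm7 were Smarcb1, Pold1, Htra2, Lig1 and Phf23, with r over the 10 libraries of 0.91, 0.97, 0.87, 0.86 and 0.83. Pold1 is the catalytic subunit of DNA polymerase delta, and Lig1 seals the joints between Okazaki fragments.

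On the chromosome, Dbf4 lies between Slc25a40 and Adam22 in the GRCr8 gene table. Slc25a40 had 97 counts over the 12 libraries and did not pass the filter, and Adam22 was not analysed here. Cdc7 lies between Tgfbr3 and Tmem258l3, the latter not analysed here. Tgfbr3 was at 33.8 ± 27.0 CPM (SD, n = 6) with HFB and 50 ± 29.3 CPM (SD, n = 6) with CTL, and its log2 fold change was -0.56 (standard error 0.75), smaller than its error.

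Over the whole table, the quasi-likelihood test of edgeR called 0 of 9382 genes between the diets at an adjusted p under 0.05 (0%), and 220 had an unadjusted p under 0.05 (2.34%), of which 98 were lower with HFB (1.04%) and 122 higher (1.3%). DESeq2 and limma-voom also called 0 genes at an adjusted p under 0.05, with 271 and 613 genes at an unadjusted p under 0.05, and DESeq2 gave no adjusted p for 106 genes. Without CTL 14 and HFB 6 edgeR called 0 genes and 430 had an unadjusted p under 0.05.

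Other genes of replication and proliferation were listed in 7 groups, 91 in all, of which 79 were in the table and 73 were tested. Of these 73, 52 had a log2 fold change below 0 and 21 above 0, with a median of -0.12 against 0.00021 over all tested genes. With an unadjusted p under 0.05, 5 were lower with HFB and 0 higher, where 1.04% of all tested genes were lower and 1.3% higher. Of the list 0 had an adjusted p under 0.05. Without CTL 14 and HFB 6 the list stood at 46 below and 27 above 0 with a median of -0.04, and 5 lower and 1 higher had an unadjusted p under 0.05. Over all 9386 genes of that fit 4572 were below 0 with a median of 0.0067, and 210 lower and 220 higher had an unadjusted p under 0.05. Not passing the filter were Mcmdc2, Orc1, Cdc45 (0 counts in all libraries), E2f3, Rbl1 and Rrm1. Whether Cdc45 lacked RNA or its reads were not counted cannot be told from these counts. No set test was run on any list.

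Ahead of the kinase, the licensing genes that load the ring had 6 of 8 tested below 0, with a median of -0.07 and none with an unadjusted p under 0.05, and 5 of 8 with a median of -0.01 without CTL 14 and HFB 6. Orc5 and Orc3, subunits of the origin recognition complex and the genes with the most counts of this list, had log2 fold changes of 0.06 (standard error 0.21, and -0.01 without these libraries) and -0.08 (standard error 0.23, and -0.003 without these libraries). Of the 6 listed counterparts of the kinase, Dbf4b and Rif1 were not found in the count table. The other 4 were tested and 3 were below 0, also without CTL 14 and HFB 6. Ppp1ca and Ppp1cb, catalytic subunits of protein phosphatase 1, which removes the phosphates that the kinase adds, had log2 fold changes of 0.19 (standard error 0.13) and -0.08 (standard error 0.18). Without CTL 14 and HFB 6 these were 0.16 and -0.13. Both relatives of the Mcm genes that were tested were below 0, Mcmbp at -0.18 (standard error 0.13) and Mcm8 at -0.05 (standard error 0.49). Without these libraries Mcmbp was at -0.11 and Mcm8 at -0.01. No gene tested in these 3 lists had an unadjusted p under 0.05 in edgeR.

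Acting after the kinase, the firing factors had 9 of 11 tested below 0 with a median of -0.12, and none with an unadjusted p under 0.05 in edgeR. Without CTL 14 and HFB 6 this was 6 of 11 with a median of -0.01, and Gins2 was higher with an unadjusted p of 0.0319 in edgeR (log2 fold change 0.31, standard error 0.13). In that fit 220 of 9386 genes were higher at an unadjusted p under 0.05, and 0 had an adjusted p under 0.05. Tipin, which protects the fork, stood at -0.11 (log2 fold change, standard error 0.19) with all libraries and at 0.01 without these, and Gins2, a subunit of GINS, at 0.15 (standard error 0.21) with all libraries. The genes of synthesis at the fork were divided, with 12 of 23 below 0, a median of -0.04 and none with an unadjusted p under 0.05, and the median turned to 0.03 with 10 of 23 below 0 without CTL 14 and HFB 6. Pcna, the sliding clamp, stood at -0.13 (log2 fold change, standard error 0.15) and Pole3, a small subunit of DNA polymerase epsilon, at 0.01 (standard error 0.16), and without these libraries they stood at 0.04 and -0.02.

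Genes that control S phase had 8 of 12 tested below 0 with a median of -0.11, and 8 of 12 with a median of -0.05 without CTL 14 and HFB 6. Tfdp1 and Rbl2, with the most counts, had log2 fold changes of -0.15 (standard error 0.16) and -0.09 (standard error 0.24), and of -0.05 and -0.03 without these libraries. Cdc25a, a phosphatase that activates cyclin-dependent kinases, was at 22.6 ± 1.61 CPM (SD, n = 6) with HFB and 28.0 ± 2.76 CPM (SD, n = 6) with CTL, or -0.31 as a log2 fold change (standard error 0.13), with an unadjusted p of 0.0280 and an adjusted p of 0.999 in edgeR.

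The proliferation genes, most of which act in mitosis, had 12 of 13 tested below 0 with a median of -0.40, and 4 of them had an unadjusted p under 0.05, where 1.04% of all tested genes were lower at that p. Ccnb1 and Ccnb2, the B-type cyclins of mitosis, had log2 fold changes of -0.49 (standard error 0.22, unadjusted p = 0.0467) and -0.50 (standard error 0.22, unadjusted p = 0.0421) in edgeR. In edgeR Cenpf, a kinetochore protein, had -0.58 (standard error 0.25, unadjusted p = 0.0406), and Kif11, a spindle motor, -0.56 (standard error 0.25, unadjusted p = 0.0415). The adjusted p was 0.999 for each of these 4 genes in edgeR, and their diet groups overlapped, so none passed the test. Plk1, a mitotic kinase and the only one of the 13 above 0, named after its values were seen, stood at 0.01 (log2 fold change, standard error 0.32), and at 0.08 without CTL 14 and HFB 6. Without CTL 14 and HFB 6 the list again had 12 of 13 below 0, a median of -0.29 and 4 genes lower at an unadjusted p under 0.05 in edgeR, where 210 of 9386 genes were. The summed level of the 13 genes was 159 CPM in the lowest HFB library (HFB 3), at a median of 195 CPM and 273 CPM in the highest (HFB 1), and 178 CPM (CTL 9), 270.4 CPM and 327 CPM (CTL 7) with CTL. The diets overlapped, with CTL 9 below 5 of the 6 HFB libraries. Marker medians also differed between the diets, at 27081 CPM with HFB against 11911 CPM with CTL for the erythroid, 139 against 65.7 CPM for the lymphoid, 2454.5 against 1377.5 CPM for the skeletal muscle and 287 against 430 CPM for the epithelial markers, and their part in these values was not tested.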

How the data were processed

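The deposited table holds raw counts per gene, which the authors made by counting aligned reads. Their processing notes name bcl2fastq, CASAVA 1.8, TopHat, the rn4 build and DESeq, and the counting program, annotation and use of strand are not given in the sources used here. Symbols from the RefSeq gene table of GRCr8 matched 16351 of 16511 genes. After a filter on low counts (edgeR's filterByExpr, 9382 genes kept) and TMM normalization, edgeR 4.0.16 fitted HFB against CTL with its quasi-likelihood test and Benjamini-Hochberg adjustment over all genes kept. DESeq2 1.42.0 and limma 3.58.1 (voom with sample quality weights) were run beside it in R 4.3.3. Relations were computed in Python 3.11.15 with scipy 1.17.1 on log2 CPM (prior count 2), with two-sided p from 100000 permutations within diets.

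The members and lists were chosen with earlier results of these data known. Named were the 9 members, the genes of each list with an unadjusted p under 0.05 (where fewer than 3, also the 2 with the most counts), the neighbours of Dbf4 and Cdc7 on the chromosome, and the 5 genes nearest to Dbf4 and to the mean of Mcm2 to Mcm7. The tests were tried on simulated data first.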

Additional observations from a re-analysis of the deposited data

Results flagged for a closer look

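In a diet's 6 libraries, a library was singled out where its gap to the nearest other exceeded the critical share of the whole range for 6 values (Dixon, 95%). Chance flags about 1 in 20 groups, and of 30 groups examined 10 were past this limit where 1.5 would be expected by chance. The groups share libraries and many of the genes vary together, so the flags are not independent and no excess is read from these numbers.

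Of these, 4 were members. CTL 14 was at 77.8 CPM in Mcm2 (next library 38.4), at 90.7 CPM in Mcm3 (next 31.8) and at 91.4 CPM in Mcm6 (next 48.5). HFB 6 was at 149 CPM in Mcm7 (next 64.3).

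Marker scores (mean log2 CPM) singled out the same libraries and CTL 9. The lymphoid score, over 5 markers, was 7.0 in CTL 14 (next 3.96). The adipocyte score was 9.20 in CTL 14 (next 10.71) and 9.17 in HFB 6 (next 10.62). The erythroid score was 11.05 in CTL 9 (next 9.25). Total counts were 2320267 in HFB 1 (next 2629159) and 2944680 in CTL 7 (next 2570080). Whether cell types or depth had a part in the members' values was not tested.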

How the results depend on the processing

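No gene had an adjusted p under 0.05 in edgeR, DESeq2 or limma-voom, under any filter, normalization or covariate tried, or without any single library. No paired analysis was possible because each library came from a separate litter and the labels give no pairs between the diets.

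The 220 genes at an unadjusted p under 0.05 became 613 with limma-voom, 367 and 773 with the lymphoid or the epithelial score as covariate, and 430 without both CTL 14 and HFB 6, an alternative chosen after seeing the data. Leaving out single libraries gave 135 to 587, with changes over 1.5 times for HFB 1 (380), HFB 4 (389), HFB 5 (135), CTL 7 (141), CTL 10 (141), CTL 11 (137) and CTL 14 (587). The 10 genes whose groups do not overlap became 18 with upper-quartile normalization, 16 with no filter and 79 without both libraries. Single libraries left out gave 11 (HFB 5) to 52 (CTL 14), with 25 without HFB 1, 20 without HFB 2, 17 without HFB 3, 38 without HFB 4, 46 without HFB 6, 18 without CTL 7, 32 without CTL 8, 22 without CTL 9, 22 without CTL 10 and 17 without CTL 11. Fewer libraries make it easier for groups not to overlap, and for the other changes the cause was not tested.

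The log2 fold change of Dbf4 ran from -1.07 (without HFB 4) to -0.86 (without HFB 5) when single libraries were left out, and Dbf4 was not tested when at least 10 counts were required in every library. Over the 9 alternatives other than single libraries, Mcm6 and Mcm10 kept their sign, and the sign changed in 1 for Cdc7, 2 each for Mcm2, Mcm5 and Mcm7, and 3 each for Mcm3 and Mcm4. With the epithelial score as covariate, log2 fold changes moved from 0.08 to 0.34 for Mcm6, 0.11 to 0.43 for Mcm7, -0.15 to -0.39 for Mcm10 and -0.09 to -0.22 for Cdc7, and turned to 0.14 for Mcm2, 0.16 for Mcm3 and 0.02 for Mcm5. Each of the 8 partners changed sign at least once when single libraries were left out. The median of the replication genes (-0.12) lay between -0.17 and -0.09 without single libraries. Depth is a limit for Dbf4, with as few as 9 counts in a library, and for Mcm10, with as few as 10.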
